A study of Mus musculus with 6 samples.

Results

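The genes described here encode the light chains of sarcomeric myosin and the proteins that bind the myosin filament, measured in C2C12 myotubes after knockdown of perilipin 2 (Plin2), a protein that coats lipid droplets, and after fatty acid treatment. They were listed by name and kept where the platform annotation tied a probe set to 1 gene symbol, with the brightest probe set by mean standing for the gene. All 9 listed genes were found, of 19938 genes with such a probe set. They are Myl1, Myl3, Myl4, Mylpf, Myl2, Mybpc1, Mybpc2, Mybpc3 and Mybph, and each had 1 probe set.

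Each of the 6 arrays held RNA from 1 culture condition of C2C12, a mouse myoblast line whose cells fuse into myotubes when serum is lowered. The conditions were Plin2 siRNA with palmitate, oleate or BSA, and scrambled siRNA with palmitate, oleate or BSA. All cells were grown in 10% serum on a matrigel coating, differentiated in 2% serum and transfected with 10 nM siRNA. The fatty acids were given at 200 µM for 20 h on albumin (BSA), with 2.5 fatty acid molecules per BSA, and the BSA cultures received albumin alone. No condition had a replicate, the cells were a single line, and whether the cultures were independent is not stated in the labels. The p-values below therefore measure the spread between these arrays only, which may be technical. That spread is mostly borrowed across probe sets, with 9.21 degrees of freedom in the main fit against 2 from a gene's own arrays. A gene's own pairs can therefore lie outside its interval, as for Myl2 and Mybpc1. With 6 arrays, their number sets the limit on precision.

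In the sarcomere, the neck of each myosin heavy chain is stiffened by an essential and a regulatory light chain. The regulatory chain can be phosphorylated by myosin light chain kinases, which tunes force. Myosin-binding protein C lies across the thick filament in the C-zone and modulates how myosin heads meet actin. Fast and slow fibres carry different isoforms of most of these proteins, and developing muscle also carries isoforms of the atrium.

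Promoter windows were taken from the RefSeq table of GRCm38.p6, which held 10 windows for the 9 genes. The 3 shown belong to the genes that changed most with Plin2 siRNA. Each is the 250 bases before a transcript start, read 5′ to 3′ on the gene's strand, with E-boxes (CANNTG, bound by the MyoD family) and MCAT elements (CATTCC on either strand, bound by TEAD factors) in capitals.
Myl2 (chr5:122092474-122092723, plus strand): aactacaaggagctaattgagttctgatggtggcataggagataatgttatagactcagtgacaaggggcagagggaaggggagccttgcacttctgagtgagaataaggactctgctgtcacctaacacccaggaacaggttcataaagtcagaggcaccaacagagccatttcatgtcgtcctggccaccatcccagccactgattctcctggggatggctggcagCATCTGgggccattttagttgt
Mybpc1 (chr10:88605153-88605402, minus strand): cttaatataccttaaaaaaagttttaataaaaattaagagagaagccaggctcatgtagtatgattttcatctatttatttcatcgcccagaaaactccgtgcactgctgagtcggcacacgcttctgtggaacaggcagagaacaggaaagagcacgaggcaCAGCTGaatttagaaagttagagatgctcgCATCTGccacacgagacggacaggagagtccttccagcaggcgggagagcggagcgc
Mybpc2 (chr7:44524670-44524919, minus strand): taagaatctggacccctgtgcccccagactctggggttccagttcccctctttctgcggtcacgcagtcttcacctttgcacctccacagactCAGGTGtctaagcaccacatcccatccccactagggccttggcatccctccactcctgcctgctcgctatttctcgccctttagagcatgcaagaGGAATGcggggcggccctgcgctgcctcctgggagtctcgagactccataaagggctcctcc

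The Mybpc1 window held 2 E-boxes and the windows of Myl2 and Mybpc2 held 1 each. The Mybpc2 window also held an MCAT element, which starts 62 bases before the transcript start; the windows of Mybpc1 and Myl2 held none. No MCAT match overlapped an E-box in these 3 windows. Over all members, 9 of 10 windows had an E-box and 4 of 10 had an MCAT element, against 66.2% and 12.6% of all 32851 windows of the same length. A MEF2 motif (YTAWWWWTAR), also sought, was found in 1 of 10 windows, that of Mybpc3, against 2.92% of all windows. A second Myl2 start in the table lay further downstream, with 2 E-boxes and no MCAT element in its window. The arrays do not tell which start these cells used, nor whether it was either of these. A match is a description of the letters and not of binding.

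Plin2 itself, the check of the siRNA, stood at log2 expression values of 7.45, 7.63 and 6.95 in palmitate, oleate and BSA with Plin2 siRNA, and at 10.10, 10.03 and 9.29 with scrambled siRNA. Its log2 change was -2.47 (SE 0.08 over 3 array pairs, adjusted p = 2.3e-08 by limma). Medians of the arrays over all probe sets lay between 4.94 and 5.02 on the same scale. Among markers of the labelled cell type, all 9 myotube genes on the list were measured, and their mean level was 12.37 to 12.39 in Plin2 siRNA arrays and 12.48 to 12.64 in scrambled arrays. Markers of cardiac muscle averaged 5.18 to 5.31 in Plin2 siRNA arrays and 5.15 to 5.33 in scrambled arrays. Those of adipocytes averaged 4.11 to 4.36 in Plin2 siRNA arrays and 4.01 to 4.23 in scrambled arrays. No value is 0 on this scale, and detection calls were not used here.

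With Plin2 siRNA, the slow regulatory light chain Myl2 and the fast binding protein Mybpc2 fell steeply, the fast regulatory light chain Mylpf fell modestly, and the slow binding protein Mybpc1 rose. The other 5 members did not pass the threshold of 0.05 on the adjusted p. Of the 9 genes, 1 rose and 3 fell, while 8.5% of all 21789 probe sets tested rose and 8.58% fell, 17.1% together. Changes of at least 1 log2 unit past the threshold were seen in 3 members and in 1.06% of probe sets. The values of the 3 Plin2 siRNA arrays did not overlap those of the 3 scrambled arrays in 5 of 9 members, against 30.3% of probe sets. The median log2 change was -0.18 over the members and 0.01 over all probe sets, and the median size regardless of sign was 0.28 over the members and 0.12 over all probe sets.

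**Figure D1:**
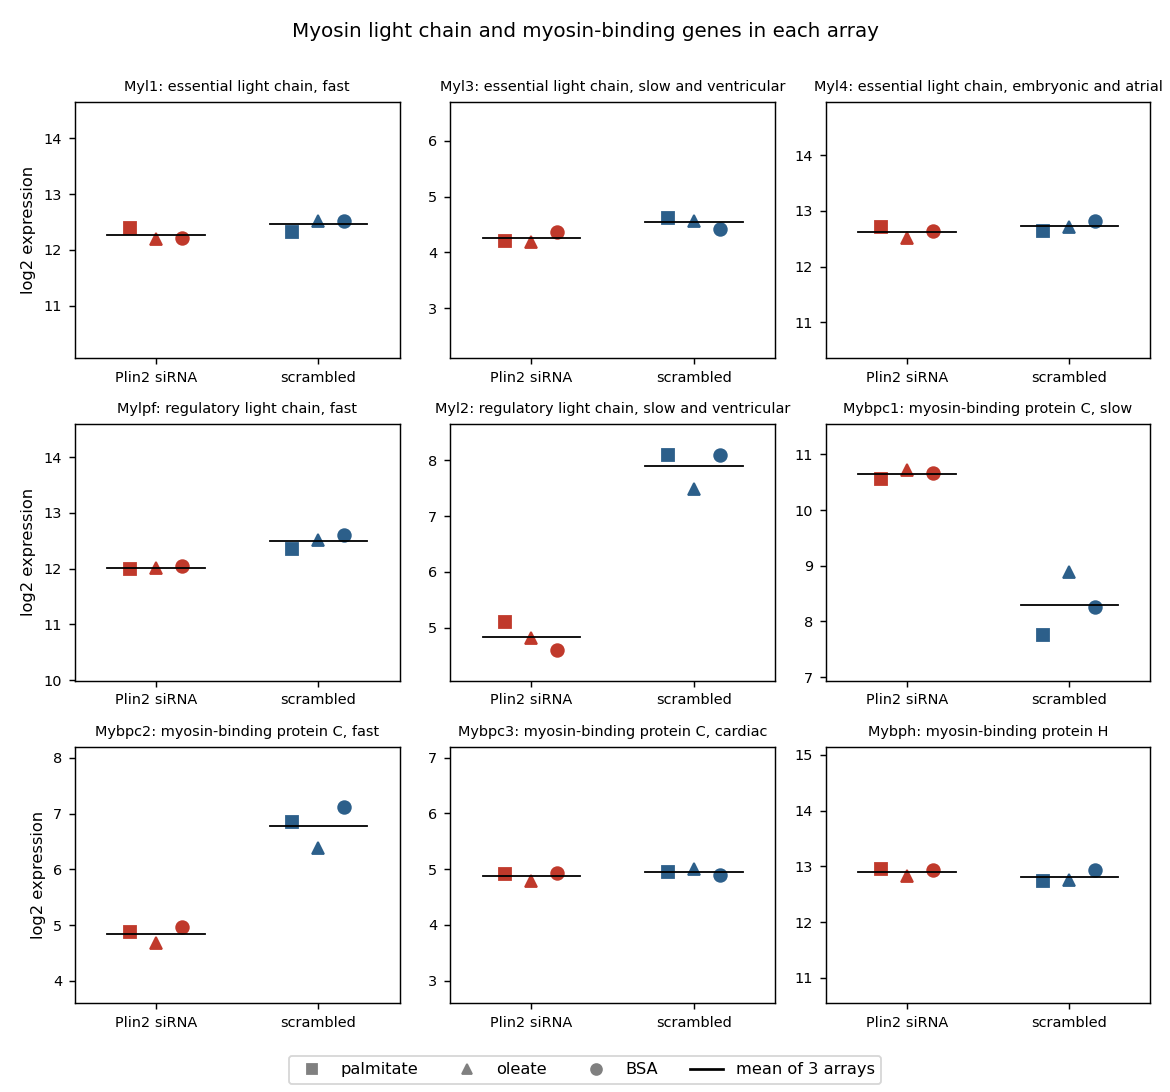
Log2 expression of each of the 9 genes in the 6 arrays; squares are palmitate, triangles oleate and circles BSA, red for Plin2 siRNA on the left and blue for scrambled siRNA on the right, and the lines are means of 3 arrays. Every panel spans the same number of log2 units; Myl2, Mybpc1 and Mybpc2 separate by siRNA with gaps of 2.39, 1.67 and 1.41 log2 units.

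Among the regulatory light chains, Myl2, the form of slow fibres and the ventricle, stood at log2 expression values of 5.10, 4.82 and 4.60 in palmitate, oleate and BSA with Plin2 siRNA, against 8.10, 7.48 and 8.09 with scrambled siRNA. The siRNA groups did not overlap, and the Plin2 siRNA values lay near the array medians, where a gene with little signal also lies. The log2 change was -3.05 (95% confidence interval -3.36 to -2.75, n = 3 pairs, adjusted p = 2.1e-07), an 8.30-fold lower signal. Since the Plin2 siRNA values were not shown to lie above background, this fold and the interval can understate the change. The difference was -3.00 in the palmitate pair, -2.67 in the oleate pair and -3.49 in the BSA pair. Mylpf, the regulatory light chain of fast fibres, stood at 11.98, 12.02 and 12.04 with Plin2 siRNA and at 12.35, 12.52 and 12.60 with scrambled siRNA. Each Plin2 siRNA array was below every scrambled array, by a gap of 0.31 log2 units. Its log2 change was -0.47 (95% confidence interval -0.60 to -0.35, n = 3 pairs, adjusted p = 0.00017), or 1.39-fold lower. Set against Mylpf within the same array, the log2 signal of Myl2 shifted with Plin2 siRNA by 2.64 units in palmitate, 2.17 in oleate and 2.93 in BSA, in favour of Mylpf, with the same limit on Myl2. An exact two-sided sign-flip test over 3 pairs cannot go below 0.25, the value it gave for Myl2 and Mylpf. In this bulk RNA, fewer cells of a type and less RNA per cell cannot be told apart.

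The essential light chains moved less. Myl1, the essential chain of fast fibres, stood at 12.40, 12.20 and 12.21 in palmitate, oleate and BSA with Plin2 siRNA and at 12.32, 12.52 and 12.52 with scrambled siRNA. The groups overlapped through the palmitate arrays, where the difference was 0.08, against -0.32 in oleate and -0.31 in BSA. Its log2 change of -0.18 (SE 0.08) had an adjusted p of 0.13. Without either palmitate array, which leaves the other 2 pairs, the change was -0.32 and passed the threshold, with adjusted p of 0.0020 without the scrambled array and 0.0021 without the Plin2 siRNA array. Without either oleate array it was -0.11 and did not pass. Leaving out either array of a treatment removes that pair, so its 2 fits are 1 result, with 1 residual degree of freedom. The p-values of these fits rest mostly on spread borrowed across probe sets. Myl4, the essential chain of embryonic muscle and the atrium, stood at 12.71, 12.51 and 12.64 with Plin2 siRNA and at 12.65, 12.71 and 12.81 with scrambled siRNA. It showed the same layout, with a difference of 0.06 in palmitate, -0.19 in oleate and -0.17 in BSA. The change of -0.10 (SE 0.06, adjusted p = 0.33) became -0.18 without a palmitate array, with adjusted p of 0.044 and 0.045, and -0.06 without an oleate array, where it did not pass. The same limit holds for these fits of Myl4. Myl3, the essential chain of slow fibres and the ventricle, was dim, at 4.21, 4.19 and 4.37 with Plin2 siRNA and 4.62, 4.57 and 4.42 with scrambled siRNA. All 6 values lay below the array medians, and its change of -0.28 (SE 0.12) did not pass the threshold (adjusted p = 0.16).

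The C-type binding proteins of slow and fast muscle moved in opposite directions. Mybpc1, the slow form, stood at log2 expression values of 10.56, 10.72 and 10.67 in palmitate, oleate and BSA with Plin2 siRNA, against 7.76, 8.89 and 8.25 with scrambled siRNA. The 3 Plin2 siRNA values lay close together (SD 0.08), while the scrambled values spread over treatments (SD 0.56). The log2 change was 2.35 (95% confidence interval 2.05 to 2.64, n = 3 pairs, adjusted p = 9.6e-07), a 5.09-fold higher signal with an interval of 4.14 to 6.24. Pair differences were 2.80 in palmitate, 1.83 in oleate and 2.42 in BSA. Mybpc2, the fast form, stood at 4.87, 4.67 and 4.97 with Plin2 siRNA, against 6.84, 6.38 and 7.12 with scrambled siRNA. As for Myl2, the Plin2 siRNA values were near or below the array medians. The log2 change was -1.95 (95% confidence interval -2.20 to -1.69, n = 3 pairs, adjusted p = 1.3e-06), a 3.85-fold lower signal, which can understate the change for the same reason as with Myl2. Within the same array, the log2 signal of Mybpc1 over that of Mybpc2 shifted with Plin2 siRNA by 4.77 units in palmitate, 3.54 in oleate and 4.57 in BSA, where Mybpc2 with Plin2 siRNA was not shown to lie above background.

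The remaining binding proteins did not pass the threshold. Mybpc3, the cardiac form, stood at 4.91, 4.79 and 4.92 with Plin2 siRNA and at 4.94, 5.00 and 4.90 with scrambled siRNA, at about the array median in every array. Its log2 change was -0.07 (95% confidence interval -0.33 to 0.18, adjusted p = 0.78). Mybph, which encodes myosin-binding protein H and shares domains with the C-type proteins, stood at 12.95, 12.83 and 12.94 with Plin2 siRNA and at 12.74, 12.75 and 12.93 with scrambled siRNA. The groups overlapped, and the change of 0.10 had an interval of -0.02 to 0.22 (adjusted p = 0.31), so a rise above 0.22 log2 units lies outside it.

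**Figure D2:**
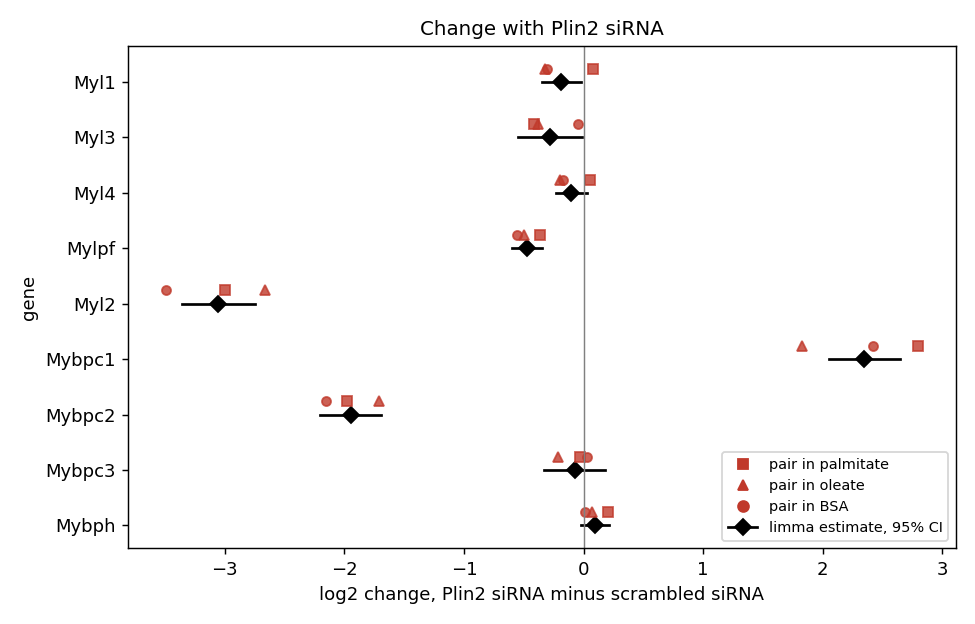
Log2 change with Plin2 siRNA for each gene; diamonds and bars are the limma estimate with its 95% confidence interval, and the red symbols above each are the 3 pairs of arrays, palmitate (square), oleate (triangle) and BSA (circle). Myl2 (-3.05) and Mybpc2 (-1.95) lie far left of 0 and Mybpc1 (2.35) far right, while the other 6 estimates run from -0.47 to 0.10.

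The fatty acids, given at 1 dose, were each compared with BSA alone at the same time. Each comparison had 2 pairs of arrays, 1 per siRNA, and the palmitate and oleate comparisons share the BSA arrays. No member passed the threshold in either comparison (0 of 9), where 0.00918% of probe sets passed with palmitate and 0.0734% with oleate. At an unadjusted p under 0.05 the limma test counted 1 member with palmitate and 1 with oleate. Over all 21789 probe sets it counted 1134 with palmitate and 1365 with oleate. Fitted log2 changes of the members ran from -0.30 to 0.25 with palmitate and from -0.52 to 0.34 with oleate. The widest palmitate values belonged to Mybpc1 (-0.30, 95% confidence interval -0.66 to 0.06) and Myl2 (0.25, interval -0.12 to 0.62). With oleate they belonged to Mybpc2 (-0.52, interval -0.83 to -0.21, adjusted p = 0.45) and Mybpc1 (0.34, interval -0.02 to 0.70, adjusted p = 0.81). For the bright genes Myl1, Myl4, Mylpf and Mybph, the intervals of both fatty acid changes lay between -0.30 and 0.19, so larger changes lie outside them.

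By SD, values of Mybpc1, Myl2 and Mybpc2 differed more between treatments in scrambled cells than in Plin2 siRNA cells. This rests on 1 array per condition, without a test for a single fatty acid. The Plin2 siRNA values of Myl2 and Mybpc2 were not shown to lie above background. Their smaller spread can therefore not be read as a smaller response. For Myl2 the palmitate difference was larger with Plin2 siRNA. For Mybpc1 the palmitate difference from BSA was -0.11 with Plin2 siRNA and -0.49 with scrambled siRNA, and the oleate difference was 0.04 with Plin2 siRNA and 0.64 with scrambled siRNA. Myl2 differed by 0.50 in palmitate and 0.22 in oleate with Plin2 siRNA, against 0.01 and -0.61 with scrambled siRNA. Its lowest scrambled value was therefore in oleate, and its lowest Plin2 siRNA value in BSA. Mybpc2 differed by -0.10 in palmitate and -0.30 in oleate with Plin2 siRNA, against -0.28 and -0.74 with scrambled siRNA. The interaction term, which asks whether the response to either fatty acid differed between siRNAs, passed in 0 of 9 members and in 0 of 21789 probe sets (0%); limma counted 551 probe sets at an unadjusted p under 0.05, Myl2 among them (0.66, SE 0.25, unadjusted p = 0.018, adjusted p = 1.0). That model left 1 residual degree of freedom, and for Myl3 the response to both fatty acids was below 0 with Plin2 siRNA (-0.16 and -0.18) and above 0 with scrambled siRNA (0.21 and 0.15), without passing (adjusted p = 1.0). Myl3 lay below the array median in every array and was not shown to lie above background, so nothing is read from these signs.

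**Figure D3:**
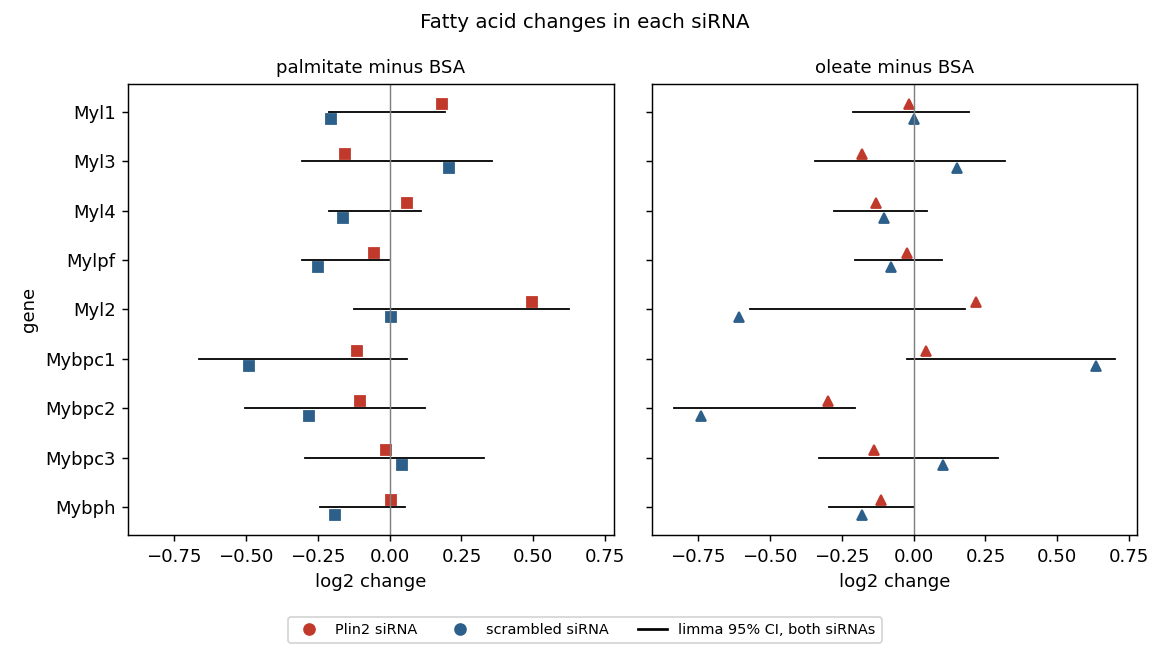
Log2 difference from BSA in palmitate (left) and oleate (right) for each gene, with red symbols for Plin2 siRNA and blue for scrambled siRNA, each from 1 pair of arrays; the black bar is the limma 95% confidence interval over both siRNAs. In oleate, scrambled cells reach -0.74 for Mybpc2, -0.61 for Myl2 and 0.64 for Mybpc1. The only bars that do not straddle 0 are those of Mybpc2 in oleate and, barely, Mylpf in palmitate, and neither change passed the adjusted threshold.

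Palmitate, a saturated fatty acid, and oleate, a longer one with a cis double bond, were then compared directly. No member passed the threshold (0 of 9, against 0.262% of probe sets). At an unadjusted p under 0.05 limma counted 3 members, beside 2007 of all 21789 probe sets. Mybpc1 was lower in palmitate, by a log2 difference of -0.64 (SE 0.17, adjusted p = 0.23), with -0.16 in Plin2 siRNA cells and -1.13 in scrambled cells. Without the Plin2 siRNA oleate array its difference was -1.03, and without the Plin2 siRNA palmitate array it was -0.98. In each case the level of that fatty acid then rests on the scrambled array alone, with 1 residual degree of freedom. The p-values of such fits rest mostly on spread borrowed across probe sets, so no call is read from them here. Without the scrambled oleate array the difference was -0.25, and without the scrambled palmitate array -0.30. Myl2 had a difference of 0.45 (interval 0.07 to 0.82, adjusted p = 0.47). It became 0.74 without the Plin2 siRNA oleate array and 0.16 without the scrambled oleate array. Mybpc2 had a difference of 0.33 (interval 0.01 to 0.64, adjusted p = 0.53). The differences of the other 6 members lay between -0.10 and 0.07. Leaving out the Plin2 siRNA oleate array also moved the oleate change of Mybpc1 to 0.73 and that of Mybpc2 to -0.70. Leaving out the scrambled oleate array instead gave -0.05 for Mybpc1, of the opposite sign, and -0.34 for Mybpc2.

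Other sarcomere genes, in lists drawn up with earlier results of these data known, were counted beside the 8.5% of all probe sets that rose with Plin2 siRNA and the 8.58% that fell. With so few genes a list, the counts are a description and nothing particular to a list is read from them. Of 11 contractile genes of fast fibres, 5 fell, 1 rose and 5 did not pass, with a median log2 change of -0.22. The calcium-storing protein Casq1 (-2.69), the Z-disc actinin Actn3 (-0.48), the calcium buffer Pvalb (-0.48), the fast heavy chain Myh4 (-0.40) and the troponin Tnnt3 (-0.28) fell. The calcium pump Atp2a1 rose (0.23), and, like Tnnt3, was named after its value was seen. Of 12 contractile genes of slow fibres, 7 fell, 2 rose and 3 did not pass (median -0.29). Csrp3 (-1.75), Ankrd2 (-1.29) and Myoz2 (-1.06), which encode proteins of the Z-disc and its stretch response, fell, and the actinin Actn2 (0.81) and the slow-type heavy chain Myh7b (0.52, named after its value was seen) rose. The slow heavy chain Myh7, looked up after its value was seen as the usual partner of Myl2, had a change of -0.03 (SE 0.08, adjusted p = 0.87). Of 7 developmental and cardiac-type genes, 3 fell, 0 rose and 4 did not pass: the perinatal and embryonic heavy chains Myh8 (-0.37) and Myh3 (-0.27) and the troponin Tnnt2 (-0.18).

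Light chains outside the members' list and the enzymes that act on light chains had calls in both directions. Of 8 other genes, 7 further light chains and the binding protein Mybphl (-0.15, adjusted p = 0.45), 2 rose, 1 fell and 5 did not pass (median -0.04). The smooth muscle and non-muscle regulatory chain Myl9 fell (-0.88) and the essential chain Myl6b rose (0.40), as did Myl12b (0.27, higher in 2 of 3 pairs, and chosen after its value was seen). Of 9 measured kinase and phosphatase genes, 2 rose and 3 fell. Mylk4 rose (0.62), as did the myosin phosphatase targeting subunit Ppp1r12a (0.24), and the skeletal muscle kinase Mylk2 (-0.51) and the smooth muscle kinase Mylk (-0.36) fell. The third fall was the cardiac kinase Mylk3 (-0.65, lower in 2 of 3 pairs, and chosen after its value was seen). Of 11 thick filament, M-band and assembly genes, 6 fell and 0 rose (median -0.31), among them the ubiquitin ligase Trim63 (-0.51), the M-band proteins Myom3 (-0.49) and Myom2 (-0.47) and the cytoskeletal adaptor Obsl1 (-0.48). Of 26 regulators of muscle and fibre type genes, 10 rose and 5 fell (median 0.04). The muscle regulatory factor Myf6 (1.89), the coactivator Ppargc1a (1.52) and the transcription factors Mef2c (1.23) and Tbx15 (0.98) had the largest changes. The falls, named after their values were seen, were Tead4 (-0.76), Myog (-0.69), Nfatc3 (-0.43), Nfix (-0.26) and Mef2a (-0.23). The paralogue Tead1, named likewise as a factor of the MCAT family, rose (0.45).

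**Figure D4:**
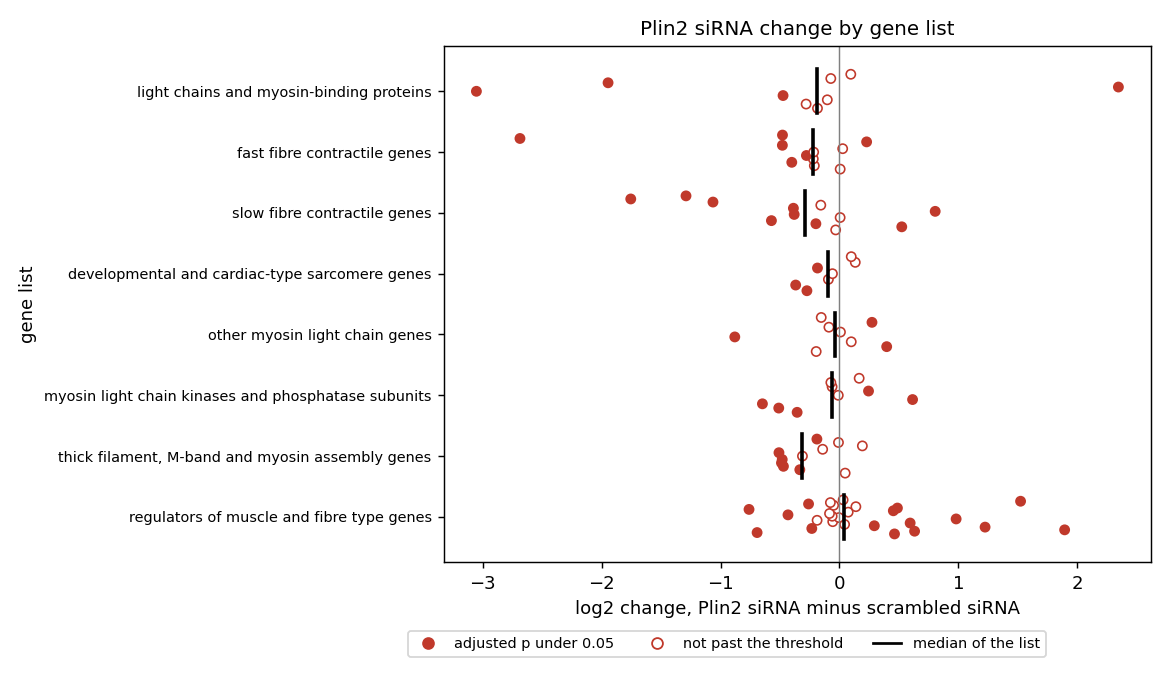
Log2 change with Plin2 siRNA for each gene of the members' list (top row) and of the 7 other lists, 1 point per gene; filled points passed the adjusted p threshold of 0.05, open points did not, and black bars are list medians. The members hold both the lowest point (Myl2, -3.05) and the highest (Mybpc1, 2.35) of the plot.

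Markers of cell states and other cell types were counted against the same 8.5% and 8.58% of all probe sets. Of 9 myotube markers, 5 fell and 0 rose: the differentiation factor Myog (-0.69), Tnnt3 (-0.28), Myh3 (-0.27), the intermediate filament Des (-0.25) and the creatine kinase Ckm (-0.19, named after its value was seen). Of 7 markers of undifferentiated myoblasts, 4 rose and 1 fell; Id3, an inhibitor of the MyoD family, rose by 1.60, Myf5 by 0.63, Id2 by 0.46 and Id1, named after its value was seen, by 0.42, while the cadherin Cdh15 fell by 0.62. The mean level of the myoblast list was 8.14 to 8.25 in Plin2 siRNA arrays and 7.73 to 7.88 in scrambled arrays. Of 7 smooth muscle markers, 3 fell (Cnn1 by 1.09, Myl9 by 0.88 and Tagln by 0.66), with mean levels of 7.89 to 7.97 in Plin2 siRNA arrays and 8.21 to 8.45 in scrambled arrays. Of the 8 cardiac markers, 1 fell (Nppb, -0.57), of 7 fibroblast markers 1 rose (Pdgfra, 0.36), and of 6 adipocyte markers 0 passed the threshold. Fibroblast markers averaged 6.80 to 6.86 in Plin2 siRNA arrays and 6.68 to 6.85 in scrambled arrays. The cardiac, fibroblast and adipocyte counts were near or below the share over all probe sets. The part of the myotube, myoblast and smooth muscle shifts in the changes of the light chains and binding proteins was not tested.

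The genes whose pattern was most like that of the strongly changed members were found over all 19938 genes, as the smallest root mean square difference between 6 log2 values after each gene was centred on its own mean. For Myl2 they were Prss46 (0.21), the adhesion receptor Adgrg1 (0.23) and the dipeptidase Dpep1 (0.31), where the values of Myl2 itself had a root mean square of 1.55 around their mean. For Mybpc1, with 1.22, they were the protease inhibitor Serpinb6b (0.19), the carbonic anhydrase Car2 (0.24) and the fatty acid transporter Cd36 (0.25). Serpinb6b, Car2 and Cd36 each had, like Mybpc1, their lowest scrambled value in palmitate, which the choice by likeness favours. This layout was also seen in 9 of 11 fast fibre genes, 6 of 12 slow fibre genes and 0 of 8 cardiac markers. In scrambled palmitate, oleate and BSA, Serpinb6b stood at 5.17, 5.89 and 5.53 and Car2 at 4.74, 5.24 and 5.16. Cd36 stood at 4.82, 6.51 and 6.07 in the same arrays. In scrambled palmitate these genes lay near or below the array medians of 4.94 to 5.02, as did Prss46 and Dpep1 with Plin2 siRNA. Such values were not shown to lie above background. For Mybpc2, with 1.00, they were the hormone Fgf21 (0.18), Fam189a2 (0.19) and R3hdml (0.21). These likenesses rest on 6 arrays and are dominated by the split between siRNAs.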

How the data were processed

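Messenger RNA of 6 C2C12 cultures was hybridised by the authors to Affymetrix whole-transcript arrays, from 100 ng of total RNA with an integrity number above 8, per the labels' protocols. The deposited values are log2 expression per probe set made with RMA (background correction, normalization between arrays, summary of probes), per the submitters' processing notes. Neither an RMA version nor a genome build is given in the sources used here. That the logarithm is to base 2 follows from RMA and the span of the values.

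Of 35556 probe sets, GEO's platform annotation tied 21789 to 1 gene symbol and 1621 to several, and did not list 12146, which are unnamed here. By Entrez ID, 21698 were matched to RefSeq (GRCm38.p6) and 0 symbols changed. The values were fitted as deposited with limma 3.58.1 in R 4.3.3, with siRNA and treatment as additive terms and an intensity trend, over all 21789 named probe sets. This leaves 2 residual degrees of freedom plus 9.21 borrowed across probe sets. Adjustment for multiple tests (Benjamini-Hochberg) ran over all of them, with a threshold of 0.05. The interaction adds a term for Plin2 siRNA with either fatty acid. An siRNA change rests on 3 pairs of arrays and a fatty acid change on 2.

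The members and all lists were chosen with earlier results of these data known. Of each list, up to 4 genes were named, those past the threshold with the largest change and 1 sign in all 3 pairs, and others are marked as named after their values were seen. Genes of like pattern were sought for members that changed by at least 1 log2 unit. Alternatives were the trend, the probe sets fitted, quantile normalization, median centring, a filter on dim probe sets and leaving out arrays.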

Additional observations from a re-analysis of the deposited data

How the results depend on the processing

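The 4 members past the threshold with Plin2 siRNA stayed past it, with 1 direction, under all 12 alternatives tried for them. Their log2 changes ran from -3.25 to -2.83 for Myl2, 2.12 to 2.61 for Mybpc1, -2.06 to -1.84 for Mybpc2 and -0.53 to -0.43 for Mylpf, and the highest adjusted p was 0.014 (Mylpf). These 12 are not independent checks. The trend, the probe sets fitted, the filter on dim probe sets and siRNA as the sole term alter the p-value and not the estimate. Leaving out either array of a pair removes that pair, so both such fits gave the same estimate. Leaving out 1 array gave 4 to 6 members past the threshold, the added ones being Myl1 and Myl4 without either palmitate array. Over all probe sets, the 3721 calls became 2403 in a fit with no trend, 2159 when unnamed probe sets were fitted too, and 2213 to 3836 with 1 array left out. For oleate, 16 calls became 2 without the trend, 0 with all probe sets, 31 with the dim probe sets removed, 64 with the BSA and oleate arrays alone and 3 to 262 with 1 array left out. For palmitate, 2 calls became 0 with all probe sets, 119 with the BSA and palmitate arrays alone and 2 to 117 with 1 array left out. For palmitate against oleate, 57 calls became 0 without the trend, 0 with all probe sets, 25 once quantile normalized and 30 to 538 with 1 array left out. Members past the threshold with 1 array left out numbered 0 to 2 for oleate and 0 to 2 for palmitate against oleate, and 0 for palmitate. No called value of a member changed sign; values short of the threshold did so or fell to about 0 in 12 cases for oleate, 11 for palmitate and 11 for palmitate against oleate. The cause of these shifts was not tested.

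Treatment paired the arrays of the 2 siRNAs as a term of the fit; with siRNA as the sole term the calls were 3167, and the same 4 members passed. Each member had 1 probe set, so a mean over probe sets changes nothing, and the interaction could not be fitted with an array left out. Myl3 fell below the filter on dim probe sets. Signal near the array medians limits Myl3, Mybpc3, and Myl2 and Mybpc2 after Plin2 siRNA.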

Other observations

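Of the 12 genes of the slow-fibre list, 5 had their lowest scrambled value in oleate, as Myl2 did, 6 in palmitate and 1 in BSA. Oleate was also lowest for 11 of 26 regulators, 6 of 7 smooth muscle markers and 2 of 11 fast fibre genes. The layout is therefore not particular to slow-fibre genes. The pair with values below was picked from the 5 slow-fibre genes after the values were seen. Csrp3, a Z-disc protein, stood at log2 expression values of 7.91, 7.54 and 7.86 in palmitate, oleate and BSA with Plin2 siRNA and at 9.98, 8.94 and 9.66 with scrambled siRNA. Ankrd2, a stretch-responsive ankyrin repeat protein, stood at 9.52, 9.24 and 9.37 with Plin2 siRNA and at 11.02, 10.17 and 10.81 with scrambled siRNA. In both genes oleate had the lowest value within each siRNA, on 1 array per condition. For palmitate against oleate, Csrp3 had a log2 difference of 0.71 (limma adjusted p = 0.064) and Ankrd2 one of 0.57 (limma adjusted p = 0.11). Among the genes of all lists, 1 passed the threshold in that comparison, the fast heavy chain Myh4, with a difference of -0.77 (limma adjusted p = 0.048).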
